A study of Mus musculus with 6 samples.

Results

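The respiratory chain subunits measured here were 93 of the 51826 genes of the count table, 80 of them encoded in the nucleus and 13 in mitochondrial DNA. They were the protein-coding genes whose symbols begin with Nduf (complex I), Sdh (complex II), Uqcr (complex III), Cox4 to Cox8 (complex IV), Atp5 (complex V) or mt-, chosen by their names alone. The nuclear genes comprised 37 of complex I, 4 of complex II, 8 of complex III, 15 of complex IV and 16 of complex V, and the mitochondrial genes 7 of complex I, 1 of complex III, 3 of complex IV and 2 of complex V. Ndufa4 and Ndufa4l2 are counted under complex I after their symbols, although the Ndufa4 protein is now placed in complex IV, and Atp5s is a coupling factor rather than a subunit. A few subunits with symbols of another form, such as Ndufab1, Cox4i1 and Cyc1, are reported apart.

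RNA was sequenced from wild-type V6.5 cells, a mouse embryonic stem cell line, in 2 states with 3 libraries each. Epiblast-like cells (EpiLC) were on day 3 without leukaemia inhibitory factor (LIF) and without 2i, the pair of GSK3 and MEK inhibitors. Embryonic stem cells (ESC) were kept with LIF and 2i, and the Knockout DMEM base with 15% serum was common to both states. A single line was used, and the labels do not say whether libraries of a state came from separate cultures, so p-values measure the spread between these libraries, which may be technical.

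Complexes I to IV pass electrons from NADH and succinate to oxygen, and complexes I, III and IV pump protons across the inner mitochondrial membrane as they do so. Complex V, the ATP synthase, uses the return flow of protons to make ATP. All complexes but complex II combine subunits imported from the cytosol with subunits made inside the mitochondrion from mitochondrial DNA. Naive mouse ESC are known to use both respiration and glycolysis, and the step to primed, post-implantation-like cells is known for a shift towards glycolysis. RNA levels do not measure respiration.

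Library totals ranged from 9710410 to 11425054 counts in EpiLC and from 11499687 to 22879812 counts in ESC. Summed levels of 5 naive markers were 37.5 to 41.1 CPM (counts relative to library size) in EpiLC libraries and 1738 to 2054 CPM in ESC libraries, and those of 5 formative markers were 1409 to 1700 CPM in EpiLC libraries and 231 to 273 CPM in ESC libraries. ESC replicate 3 stood apart. Its counts differed from those of ESC replicates 1 and 2 by a chi-square per degree of freedom of 28.3 and 29.0, against 2.79 between replicates 1 and 2 and 2.28 to 4.35 among EpiLC libraries. Summed levels of 11 fibroblast markers were 48.9 to 58.7 CPM in EpiLC and 60.3 to 75.8 CPM in ESC. These markers disagreed: of 7 tested, 3 were called higher in EpiLC (against 32.0% of all genes) and 2 lower (against 32.6%). Their log2 fold changes ran from -2.02 to 8.96. ESC replicate 3 was the lowest of the 3 ESC libraries for 64 of the 75 nuclear subunits tested (85.3%) and for 45.4% of all genes tested.

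The nuclear subunits were lower in EpiLC than in ESC across all 5 complexes. By edgeR's quasi-likelihood test over all 14996 genes that passed the filter on low counts, 58 of the 75 nuclear subunits tested fell at an adjusted p under 0.05 (77.3%), and 17 were not called. Of all genes tested, 32.6% fell. No nuclear subunit was called higher, either by edgeR, by DESeq2 or by limma-voom, whereas 32.0% of all genes were called higher. At an unadjusted p under 0.05, none was higher in the main edgeR fit, and 1 was with a length trend removed. The log2 fold changes of the nuclear subunits had a median of -0.53, which is 69.3% of the ESC level, with quartiles of -0.71 and -0.27 and a range of -1.97 to 0.13. The median over all genes tested was 0.01, with quartiles of -0.48 and 0.59. All 3 EpiLC libraries lay below all 3 ESC libraries for 59 of the 75 subunits, against 35.3% of all genes. A fall of at least 2-fold was called for 6 of the 75, against 12.4% of all genes, so the falls were common and mostly modest. Without ESC replicate 3, 71 of the 75 fell, against 38.7% of all genes. In bulk RNA, fewer cells of a type and less RNA per cell cannot be told apart.

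**Figure D1:**
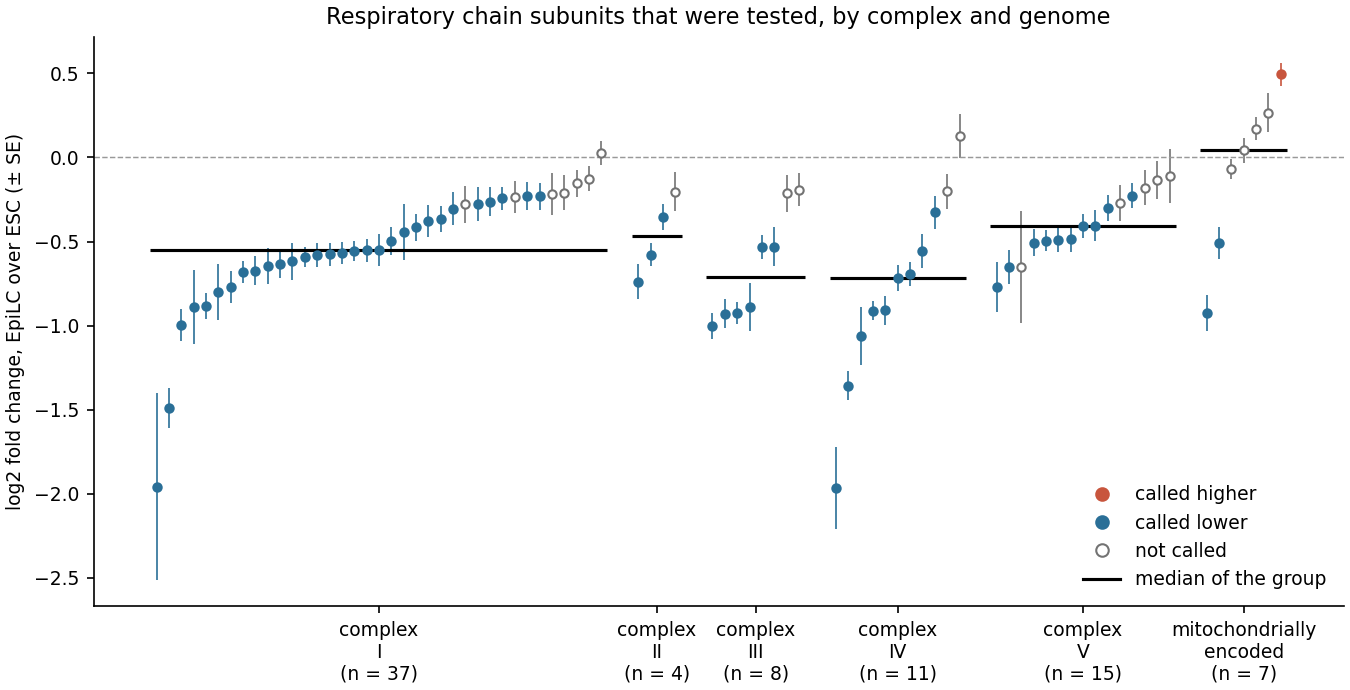
Log2 fold change of EpiLC over ESC (vertical axis, with its standard error) for each subunit that was tested, grouped by complex for nuclear genes and with the mitochondrially encoded genes on the right; bars mark group medians, and filled points were called at an adjusted p under 0.05. Nearly all nuclear points lie below 0, from -1.97 to 0.13, and the 7 mitochondrially encoded genes spread from -0.92 to 0.49 around a median of 0.04.

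Complex I, the NADH dehydrogenase, had 30 of its 37 nuclear subunits lower in EpiLC (81.1%, against 32.6% of all genes). Its median log2 fold change was -0.55. The 7 nuclear core subunits, some of which carry the flavin or iron-sulfur clusters, included 6 that fell. The 30 accessory subunits included 24 that fell. Ndufb4 (chr16:37647170-37654453, GRCm38), an accessory subunit of the membrane arm, had 9.84, 10.3 and 11.2 CPM in EpiLC and 30.7, 31.5 and 25.4 CPM in ESC. The groups were far apart, and the level was 2.81-fold lower in EpiLC (edgeR: log2 fold change -1.49 ± 0.12, SE; adjusted p = 1.5e-05). Its 2 near-identical copies held 0 counts, and the copy Ndufb4c is 100% identical to it over 390 bases. The handling of reads that fit both places is not given, so these zeros do not show whether reads were lost. Ndufb5, also of the membrane arm, had 64.5, 69.5 and 70.2 CPM in EpiLC and 145, 145 and 118 CPM in ESC. It was 2.00-fold lower without overlap of the groups (adjusted p = 3.86e-05 by edgeR), and 616 bases of its exons overlap exons of Mrpl47 on the opposite strand.

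Among the core subunits, Ndufv1, the subunit that binds flavin and accepts electrons from NADH, averaged 117 ± 9.03 CPM in EpiLC and 199.7 ± 21.9 CPM in ESC (SD, n = 3 each; log2 fold change -0.77). It fell by edgeR, with adjusted p = 0.000181. Ndufs3 was the core gene that was not called, at 23.9 ± 1.41 CPM in EpiLC and 28.1 ± 2.03 CPM in ESC (adjusted p = 0.0552 by edgeR). The other subunits that were not called were Ndufa1, Ndufa2, Ndufa4, Ndufa10, Ndufa12 and Ndufb7, whose log2 fold changes ran from -0.28 for Ndufa4 to 0.03 for Ndufb7. The count of called complex I subunits ran from 23 to 36 over the 15 other settings and leave-outs, and without ESC replicate 3 it was 36.

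Complex II, succinate dehydrogenase, is the complex with no mitochondrially encoded subunit, and it also works in the tricarboxylic acid cycle. Of its 4 genes, 3 fell, with a median log2 fold change of -0.47. Sdhc, a membrane anchor (chr1:171127165-171150603), had 77.9, 77.2 and 78.9 CPM in EpiLC and 144, 137 and 109 CPM in ESC. The EpiLC values were nearly equal to one another and below every ESC value, and the log2 fold change was -0.74 (SE 0.10, adjusted p = 0.000353 by edgeR). Sdhb, the iron-sulfur subunit, had 94.9, 90.2 and 94.0 CPM in EpiLC and 141, 145 and 130 CPM in ESC (log2 fold change -0.58, adjusted p = 0.000116 by edgeR). Sdha, the flavoprotein that oxidises succinate, had 264, 270 and 259 CPM in EpiLC and 358, 356 and 299 CPM in ESC, a smaller fall of 0.35 on the log2 scale (adjusted p = 0.00467 by edgeR). Neither Sdhb nor Sdha overlapped between groups. Sdhd, the other membrane anchor, was not called (153.8 ± 3.18 CPM in EpiLC, 177 ± 30.0 CPM in ESC, SD, n = 3 each). ESC replicate 3 lay at 142 CPM, below all 3 EpiLC libraries. Without that library Sdhd was called lower, which made all 4 genes of complex II lower.

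Complex III, which moves electrons from ubiquinol to cytochrome c, had 6 of 8 nuclear genes lower, with a median log2 fold change of -0.71. Uqcrc1, the larger of its core subunits (chr9:108936633-108949623), had 214, 230.4 and 231 CPM in EpiLC and 482, 460.5 and 412 CPM in ESC. The groups were far apart, and the level was 2.00-fold lower in EpiLC (adjusted p = 1.01e-05 by edgeR). The small subunits Uqcrb and Uqcr10 fell by nearly as much. Uqcrb, which lies beside the ubiquinone site, had 27.1, 28.1 and 29.1 CPM in EpiLC and 52.5, 50.2 and 58.4 CPM in ESC (log2 fold change -0.93, adjusted p = 3.17e-05 by edgeR). Uqcr10 had 87.7, 94.2 and 85.9 CPM in EpiLC and 167, 176 and 166 CPM in ESC (log2 fold change -0.93, adjusted p = 6.66e-06 by edgeR). For Uqcrb, ESC replicate 3 was the highest of the 6 libraries, so the fall of this gene was not smaller in that library. The Rieske iron-sulfur protein Uqcrfs1, a catalytic subunit, was not called (110.5 ± 4.81 CPM in EpiLC, 128 ± 19.0 CPM in ESC, SD, n = 3 each), nor was Uqcrh, the hinge protein (log2 fold change -0.19).

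Complex IV, cytochrome c oxidase, had 15 nuclear genes, of which 11 passed the filter. Of these 11, 9 fell (81.8%, against 32.6% of all genes), with a median log2 fold change of -0.72. Cox5a (chr9:57521274-57532426), a subunit of the matrix side that is present in every tissue, had 104, 102 and 96.4 CPM in EpiLC and 237, 248 and 290.2 CPM in ESC. It was 2.56-fold lower in EpiLC by edgeR (log2 fold change -1.36, SE 0.09, adjusted p = 4.4e-06), and ESC replicate 3 was the highest library. Of its exonic bases, 269 overlap the gene model Gm26631 on the opposite strand. In the order of levels per kilobase of the main transcript among nuclear subunits, Cox5a took rank 14 in EpiLC and rank 3 in ESC. Its partner Cox5b was not called, at 66.4 ± 3.75 CPM in EpiLC and 76.1 ± 10.2 CPM in ESC (SD, n = 3 each; log2 fold change -0.20). Cox6a1, Cox6b1, Cox6c, Cox7a2, Cox7b and Cox8a, the forms found in most tissues, all fell, by 0.33 to 0.91 on the log2 scale. Cox7c, a membrane subunit, had 13.7 ± 0.31 CPM in EpiLC and 12.4 ± 1.79 CPM in ESC and was not called. It has 3 near-identical copies, among them Gm10012, 99.4% identical over 315 bases, and reads lost to them were not measured.

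Complex V had 10 of its 15 tested nuclear genes lower (66.7%, against 32.6% of all genes). Its median log2 fold change was -0.41, and none of its genes was called lower by 2-fold or more. Its genes include the most abundant nuclear subunits. Atp5b, the catalytic beta subunit, had 1023, 1057 and 1054 CPM per kilobase in EpiLC and 1521, 1481 and 1418 CPM per kilobase in ESC, and Atp5a1, the alpha subunit, had 563, 571 and 572 CPM per kilobase in EpiLC and 842, 829 and 716 CPM per kilobase in ESC. These took ranks 1 and 2 of the nuclear subunits in both states, and their log2 fold changes were -0.50 and -0.48 (adjusted p = 0.000185 and 0.000679 by edgeR). All 4 genes of the peripheral stalk, which holds the catalytic head still, fell, whereas 3 of 5 genes of the head did.

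Among the other ATP synthase genes, Atp5j2, a membrane subunit, had 90.9, 88.9 and 85.8 CPM in EpiLC and 148, 152 and 117 CPM in ESC (log2 fold change -0.65, adjusted p = 0.00061 by edgeR). Atp5o, the stalk subunit that confers oligomycin sensitivity, had 119, 129 and 125 CPM in EpiLC and 188, 185 and 157 CPM in ESC (log2 fold change -0.51, adjusted p = 0.000766 by edgeR). Neither gene overlapped between the groups. Exons of Atp5o overlap a second gene entry of the same symbol over 243 bases on its own strand, and other genes over 702 bases on the opposite strand. The head subunits Atp5d and Atp5e were not called, with log2 fold changes of -0.27 and -0.18.

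Summed over the genes of each complex, EpiLC held 72.4% of the ESC level in complex I, 75.2% in complex II, 63.0% in complex III, 60.0% in complex IV and 72.9% in complex V. The sum over all nuclear subunits was 9134, 9346 and 9288 CPM in EpiLC and 13684, 13635 and 12049 CPM in ESC. ESC replicate 3 lay between the other ESC libraries and EpiLC. Relative to the ESC mean, the median log2 level of nuclear subunits was -0.50, -0.51 and -0.49 in EpiLC replicates 1 to 3 and 0.07, 0.08 and -0.15 in ESC replicates 1 to 3. In each complex the 3 EpiLC medians lay below the 3 ESC medians. The differences between complexes were not tested.

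**Figure D2:**
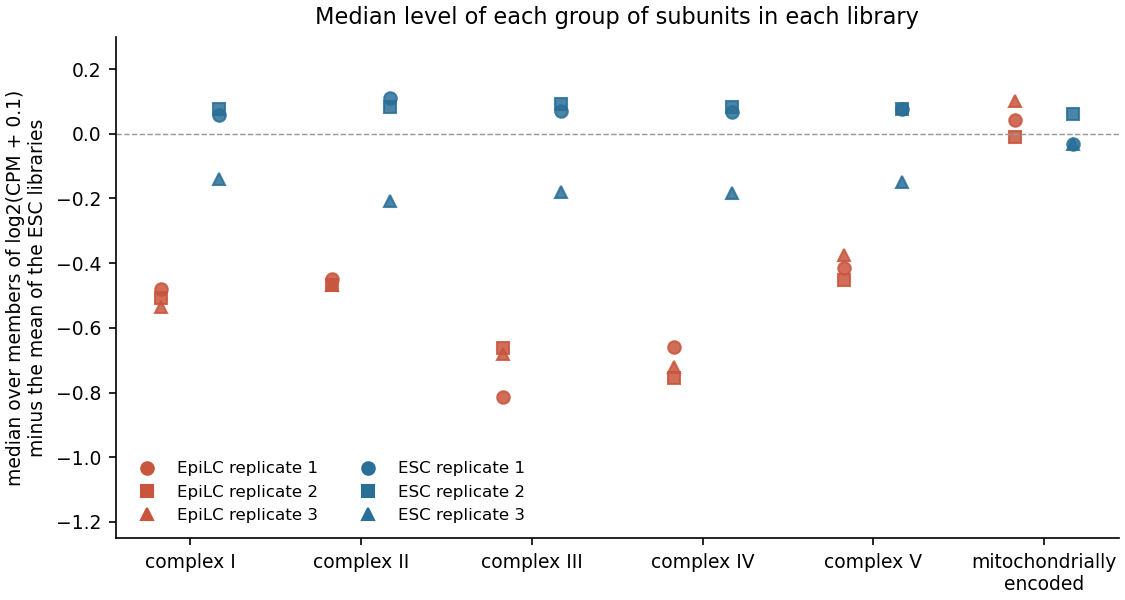
Median over the genes of each complex, or over the mitochondrially encoded genes, of log2(CPM + 0.1) minus the mean of the ESC libraries (vertical axis), with 1 point for each library and EpiLC left of ESC. The 3 EpiLC libraries lie below the 3 ESC libraries in each nuclear complex, ESC replicate 3 lies lowest of the ESC libraries, and the states overlap for the mitochondrially encoded genes.

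The 13 mitochondrially encoded subunits are cut from long transcripts of either strand of the mitochondrial genome. Their counts moved in both directions. Of the 7 that had counts, 1 was called higher in EpiLC, 2 were called lower (28.6%) and 4 passed in neither direction, where 32.0% of all genes were called higher and 32.6% lower. Their median log2 fold change was 0.04, and it ran from -0.0301 to 0.23 under other settings. All 3 EpiLC libraries lay above all 3 ESC libraries for 3 of the 7, against 34.9% of all genes, and below all 3 for another 3, against 35.3% of all genes. The difference between the 2 genomes was not tested.

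The gene with the largest rise was mt-Nd4 (chrM:10167-11544), a proton-pumping subunit of complex I. It had 129, 114 and 121 CPM in EpiLC and 83.5, 87.1 and 87.6 CPM in ESC. All EpiLC values lay above all ESC values (edgeR: log2 fold change 0.49 ± 0.07, SE; adjusted p = 0.000344).

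The largest fall was that of mt-Nd6 (chrM:13552-14070), the single protein gene read from the light strand. It had 32.5, 37.2 and 36.7 CPM in EpiLC and 58.3, 69.4 and 74.7 CPM in ESC. The groups did not overlap (edgeR: log2 fold change -0.92 ± 0.11, SE; adjusted p = 0.000126). Its last 14 bases overlap the end of mt-Nd5 on the other strand, and mt-Nd5 itself was not called (log2 fold change -0.07). Whether the counting used strand is not given, so RNA of the opposite strand at mt-Nd6 cannot be told apart from its own.

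Of the 7 genes with counts, the most abundant was mt-Co1 (chrM:5328-6872), the catalytic subunit of complex IV. It had 2589, 2433 and 2530 CPM in EpiLC and 3751, 3919 and 3085 CPM in ESC. It fell to 70.2% of the ESC level without overlap (edgeR: log2 fold change -0.51 ± 0.10, SE; adjusted p = 0.00188), close to the nuclear median.

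Of the genes that were not called, mt-Nd1 had 440.3, 425 and 458 CPM in EpiLC and 431, 460.3 and 392 CPM in ESC, and the states overlapped. For mt-Nd5, the EpiLC values of 215, 202 and 213 CPM lay just below the ESC values of 216, 230.2 and 216 CPM. For mt-Nd2, the EpiLC values of 166, 147 and 153 CPM all lay above the ESC values of 133, 139 and 142 CPM, with an adjusted p of 0.0522 by edgeR. For mt-Cytb, the subunit of complex III, the EpiLC values of 324, 294 and 307 CPM likewise lay above the ESC values of 273, 288 and 209 CPM, with an adjusted p of 0.0732 by edgeR. These 2 genes passed the threshold under some other settings: mt-Nd2 was called higher in 4 of 14 and mt-Cytb in 5 of 14. Both were called without ESC replicate 3, with mt-Nd4, which made 3 genes higher.

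The sum over the mitochondrially encoded genes was 3896, 3652 and 3818 CPM in EpiLC and 4945, 5192 and 4206 CPM in ESC, which is 79.2% of the ESC level. It covers only the 7 genes with counts, since the other 6 gave no measurement. The difference between the states came with mt-Co1. Without it, the sum was 1307, 1219 and 1289 CPM in EpiLC and 1195, 1273 and 1121 CPM in ESC, which is 106% of the ESC level, and the states overlapped. Mitochondrial ribosomal RNA, which the depletion kit targets, took 0.116% to 0.145% of counts in EpiLC and 0.0851% to 0.105% in ESC.

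**Figure D3:**
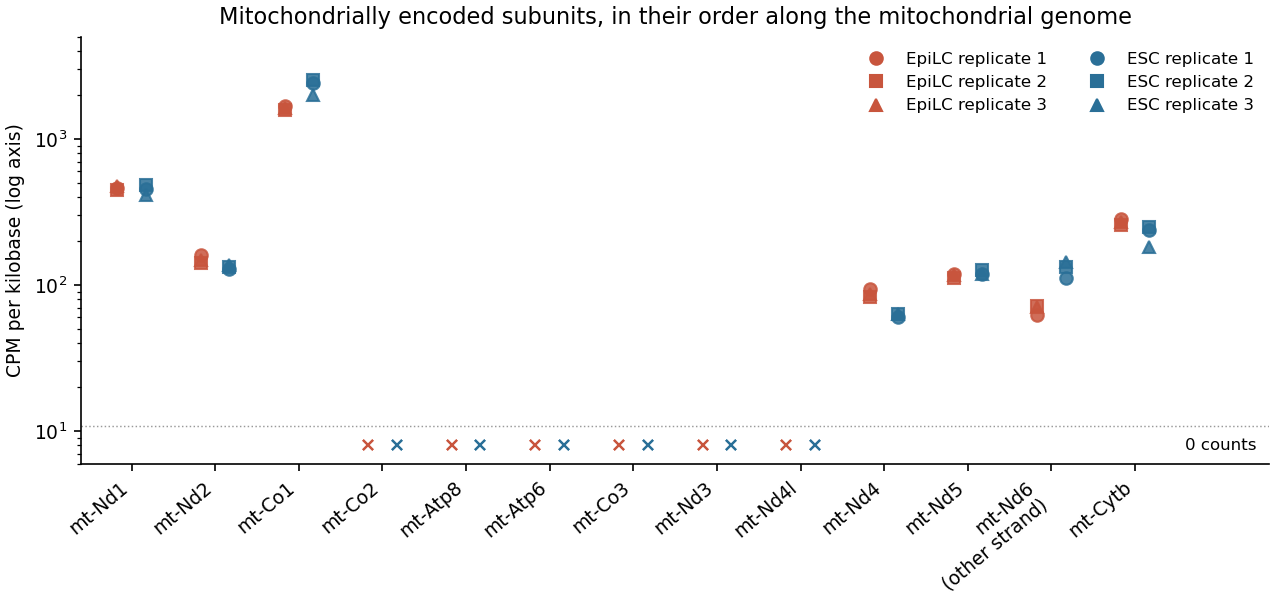
Level of each mitochondrially encoded subunit in CPM per kilobase (vertical log axis), in the order of the genes along the mitochondrial genome, with 1 point for each library and EpiLC left of ESC; crosses mark genes with 0 counts. A run of 6 neighbouring genes from mt-Co2 to mt-Nd4l holds no count in any library, between mt-Co1 and mt-Nd4.

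The other 6 mitochondrial genes, mt-Co2, mt-Atp8, mt-Atp6, mt-Co3, mt-Nd3 and mt-Nd4l, had 0 counts in every library and give no measurement of their RNA. They lie in a row on the genome, between mt-Co1 with 277242 counts and mt-Nd4 with 8517 counts over the 6 libraries. Of these 6 genes, 5 have a near-identical copy in a block of 7 pseudogenes on chr1:24611535-24616197 (GRCm38), which spans 4663 bases on the minus strand. The exception, mt-Atp8, lies between mt-Co2 and mt-Atp6, overlaps mt-Atp6 by 43 bases and matched no annotated copy of its own. In the block, the copies of mt-Co2 (chr1:24614885-24615565) and mt-Atp6 (chr1:24613974-24614651) are neighbours too. Only annotated transcripts were searched, so the bases between these copies were not compared with mt-Atp8. The copies of mt-Co2 (Gm28661), mt-Atp6 (Gm10925), mt-Co3 (Gm28437) and mt-Nd4l (Gm10222) are 100% identical over 681, 678, 783 and 294 bases and held 0, 0, 1 and 0 counts over the 6 libraries. Another copy of mt-Co2 (Gm13341, chr2:22587291-22587962), 95.9% identical over 684 bases, held 18 counts. At the ends of the block, the copy of mt-Nd4 (Gm28439) is 100% identical over 876 of its 1378 bases and that of mt-Co1 (Gm29216) 99.8% identical over its last 483 bases, and both genes kept counts.

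The copy of mt-Nd3 in the block, Gm28438, differs from it by 1 base and had 41 counts over the 6 libraries, where mt-Nd3 had 0. The first 120 bases of both are shown with that base in capitals, from GENCODE transcripts of GRCm38 (mt-Nd3 at chrM:9459-9578, plus strand, and Gm28438 at chr1:24613000-24613119, minus strand).
mt-Nd3: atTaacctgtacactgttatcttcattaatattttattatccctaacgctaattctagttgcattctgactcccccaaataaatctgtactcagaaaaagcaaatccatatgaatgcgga
Gm28438: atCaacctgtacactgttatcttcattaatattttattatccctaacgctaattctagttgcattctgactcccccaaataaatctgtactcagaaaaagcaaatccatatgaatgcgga
The difference is T3C, the mitochondrial base first, counted from 1 at the first base of the gene. A read from most of either gene fits both places equally well. The handling of such reads is not given in the sources used here, and its part in the zeros, and in the levels of mt-Nd4 and mt-Co1, was not tested.

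Tissue-restricted isoforms made up a small part of complex IV in both states. Levels of paralogs are compared within a library per kilobase of the main transcript. Cox7a1, the heart and skeletal muscle form of subunit 7a (chr7:30184144-30186078), had 10.5, 4.79 and 5.45 CPM per kilobase in EpiLC and 25.1, 27.4 and 27.3 CPM per kilobase in ESC. It had the largest fall of the nuclear subunits (edgeR: log2 fold change -1.97 ± 0.24, SE; adjusted p = 0.000179). Its share of Cox7a1 and Cox7a2 together was 3.18% ± 1.24 in EpiLC and 9.37% ± 1.34 in ESC (SD, n = 3 each), without overlap. Cox7a2, the form of most tissues, fell by 0.33 on the log2 scale. Summed levels of 14 muscle markers were 39.7 to 42.0 CPM in EpiLC and 30.0 to 31.6 CPM in ESC. In each state 12 of the 14 had counts, with Ckmt2 at 0 in both. The markers disagreed: of 7 tested, 5 were called higher (against 32.0% of all genes) and 2 lower (against 32.6%). Their log2 fold changes ran from -3.27 to 5.06. The part of muscle-like cells in the level of Cox7a1 was not tested.

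Cox6b2, the testis form of subunit 6b (chr7:4751792-4753094), had 18.4, 18.4 and 18.5 CPM per kilobase in EpiLC and 43.5, 42.3 and 28.4 CPM per kilobase in ESC (edgeR: log2 fold change -1.06 ± 0.17, SE; adjusted p = 0.000746). Its paralog Cox6b1 had 184, 179 and 186 CPM per kilobase in EpiLC and 339, 351 and 344 CPM per kilobase in ESC. Cox6b1 fell by 0.91 on the log2 scale, and the share of Cox6b2 in the pair was 9.14% ± 0.15 in EpiLC and 9.93% ± 2.00 in ESC (SD, n = 3 each), with overlap of the groups. The 10 male germ cell markers summed to 0.301 to 0.714 CPM in EpiLC and 0.991 to 1.74 CPM in ESC, and 7 of the 10 in each state, protamines Prm1 and Prm2 among them, had 0 counts.

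Ndufa4l2, a paralog of Ndufa4 known as a target of hypoxia-inducible factor, had 1.72, 1.19 and 0.0956 CPM per kilobase in EpiLC and 4.22, 4.73 and 1.96 CPM per kilobase in ESC. These rest on 16, 13 and 1 counts in EpiLC and 76, 98 and 21 counts in ESC, so the value of EpiLC replicate 3 is near the floor. The groups did not overlap, although EpiLC values were widely spread (edgeR: log2 fold change -1.96 ± 0.56, SE; adjusted p = 0.0142). Ndufa4 had 200.1, 200.4 and 184 CPM per kilobase in EpiLC and 255, 258 and 196 CPM per kilobase in ESC, so that Ndufa4l2 made up 0.498% ± 0.408 of the pair in EpiLC and 1.47% ± 0.43 in ESC (SD, n = 3 each).

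The remaining restricted forms were too low to test. Cox6a2, the muscle form of subunit 6a, had 1 count over the EpiLC libraries and 7 over the ESC libraries, a ratio per scaled total of 0.23 with an exact 95% interval of 0.00511 to 1.79. Cox7b2, a testis form, had 13 counts in EpiLC and 10 in ESC, a ratio of 2.09 with an interval of 0.849 to 5.34. Cox8b, a muscle form, and Cox8c, a testis form, had 0 counts in EpiLC and 2 and 3 counts in ESC. Such intervals cover counting error only, and none of these 4 genes showed a difference that could be detected at this depth.

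**Figure D4:**
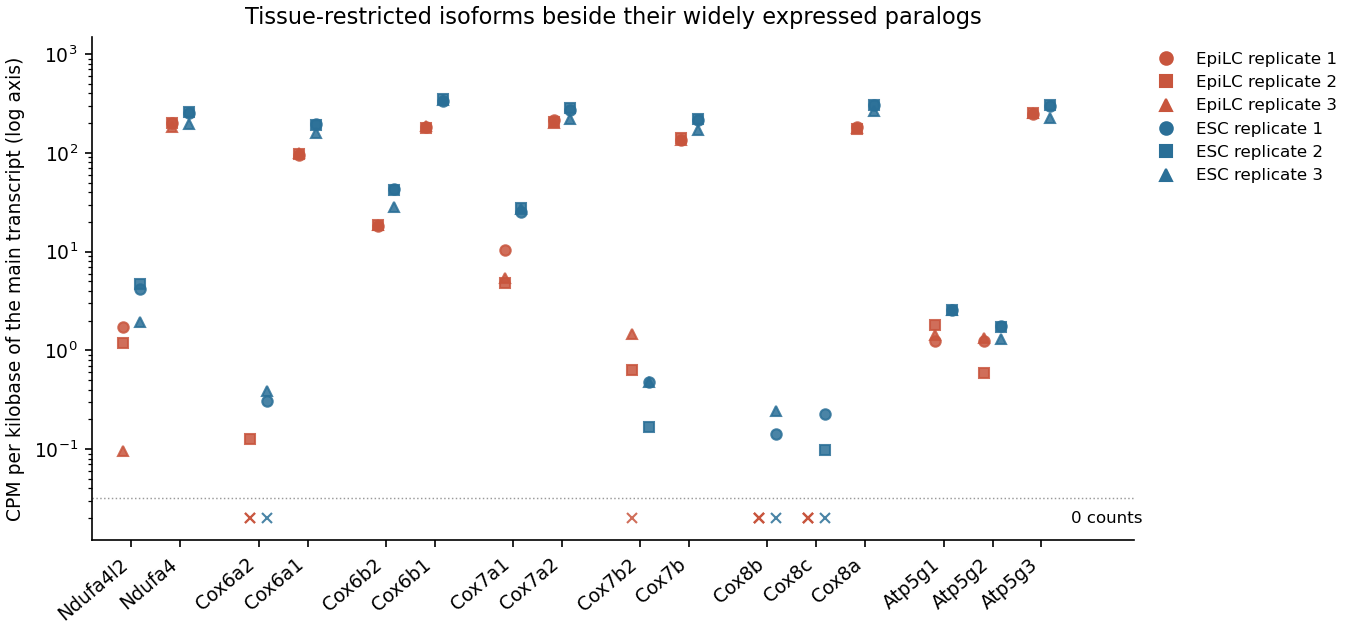
Level in CPM per kilobase of the main transcript (vertical log axis) of tissue-restricted isoforms beside their widely expressed paralogs, and of the 3 genes of the ATP synthase c-ring, with 1 point for each library and EpiLC left of ESC; crosses mark 0 counts. The restricted forms lie far below their paralogs in every library, and the EpiLC points of Cox7a1, Cox6b2 and Ndufa4l2 lie below their ESC points.

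The genes Atp5g1, Atp5g2 and Atp5g3 encode the same mature c subunit of the ATP synthase rotor with different import sequences. Atp5g3 held nearly all of their counted level, at 249.8, 252 and 254 CPM per kilobase in EpiLC and 298, 306 and 224 CPM per kilobase in ESC. It was not called (log2 fold change -0.13, adjusted p = 0.327 by edgeR). Atp5g1 had 1.23, 1.80 and 1.42 CPM per kilobase in EpiLC and 2.54, 2.54 and 2.55 CPM per kilobase in ESC, a fall without overlap (log2 fold change -0.77, adjusted p = 0.00223 by edgeR). Atp5g2 had 1.24, 0.585 and 1.34 CPM per kilobase in EpiLC and 1.77, 1.73 and 1.31 CPM per kilobase in ESC and was not called. Both low genes have near-identical copies, and the copies of Atp5g1 and Atp5g2 held 9.31% and 25.2% of the counts of gene and copies together. The copy Gm10175 is 100% identical to Atp5g2 over 645 bases. Reads lost to such copies are not measured by these shares, so the true share of Atp5g3 is uncertain. The main transcript used for Atp5g1 has 4715 bases, against 723 for Atp5g3, which lowers the level of Atp5g1 per kilobase.

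Near-identical copies made the level of some other nuclear subunits uncertain. Of the 80 nuclear genes, 22 have such a copy elsewhere in the annotation. Atp5l, a membrane subunit of the ATP synthase, has 9 copies and had 13 counts over the EpiLC libraries and 17 over the ESC libraries, too few to test. Ndufs5, an accessory subunit of complex I, had 67 counts over EpiLC libraries and 201 over ESC libraries, and its copy BC002163 held 62.6% of the counts of both. It was called lower (log2 fold change -0.89, SE 0.22). Of the nuclear subunits tested, 16 of 21 with a copy fell (median log2 fold change -0.51), and 42 of 54 without one did (median -0.54). Of 49 subunits whose exons overlap no exon of another gene, 36 fell, and of 26 whose exons do, 22 fell. The share of all genes that fell was 32.6%. Counts of the overlapping genes are uncertain, since the strand setting is not given.

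The subunits are short genes, and 55 of the 75 nuclear subunits tested (73.3%) were among the shortest 25% of all tested genes, up to 2492.5 exonic bases. Genes of that length as a whole differed between the states. Their median deviation from the mean of the 6 libraries was -0.08 to -0.03 on the log2 scale in EpiLC and 0.05 to 0.09 in ESC, and that of the longest 25% was 0.08 to 0.09 in EpiLC and -0.10 to -0.04 in ESC. Among all 3744 tested genes of the shortest class, 34.8% fell and the median log2 fold change was -0.09, against -0.53 for the 55 subunits in it, of which 40 fell. Of the 20 longer subunits 18 fell, with a median of -0.52. With a per-library length trend removed, 50 of the 75 nuclear subunits fell and their median was -0.43. Among the 3499 genes with ESC levels in the middle range of the subunits' own levels, 42.3% fell, and the median was -0.12. Over the 75 nuclear subunits, the log2 fold change had a Pearson r of 0.12 with log10 exonic length and of 0.17 with log10 ESC level per kilobase, which describe these genes, since genes share libraries and are not replicates.

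Promoters of respiratory genes are known for sites of the factors NRF1, GABPA (NRF2) and YY1. RefSeq windows from 250 bases before to 50 after the start (GRCm38.p6) were matched for 65 of the 80 nuclear subunits. The NRF1 letters, GCGCA and GCGC with any base between them, on either strand, were found in 16 of the 65 windows (24.6%), against 6.91% of 16521 windows of protein-coding genes. The GABPA letters CCGGAAGT were found in 5 (7.69%, against 5.54% of all windows) and the YY1 letters AAGATGGCG in 6 (9.23%, against 2.03%). Of the 16 subunits with NRF1 letters, 7 belong to complex I and 5 to complex V. Of these 16, 13 fell (median log2 fold change -0.50), and of the 46 tested subunits with a window and no such letters, 34 fell (median -0.51). The share of all genes that fell was 32.6%.

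Stretches of 120 bases are shown to place these letters beside genes that fell. They come from the most lowered subunits with letters in the 250 bases before the start and at least 10 CPM in ESC, 2 for NRF1 and 1 for GABPA, with the matches in capitals. Uqcrc1, with NRF1 letters, fell further than Cox6a1, and Cox8a, with GABPA letters, fell further than Uqcr11, but none of their matches lies wholly before the start. They lie at chr16:37654490-37654609 for Ndufb4, chr5:115349051-115349170 for Cox6a1 and chr10:80406822-80406941 for Uqcr11, all on the minus strand.
Ndufb4: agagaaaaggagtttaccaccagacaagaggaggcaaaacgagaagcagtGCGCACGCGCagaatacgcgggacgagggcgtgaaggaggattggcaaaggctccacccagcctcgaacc
Cox6a1: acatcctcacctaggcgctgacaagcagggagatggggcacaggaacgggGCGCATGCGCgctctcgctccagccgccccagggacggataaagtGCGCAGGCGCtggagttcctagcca
Uqcr11: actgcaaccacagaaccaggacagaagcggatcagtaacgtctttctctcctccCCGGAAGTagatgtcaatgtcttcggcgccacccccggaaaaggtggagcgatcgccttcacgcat
Ndufb4 holds 3 NRF1 matches wholly before the start, and its stretch is cut so that it shows only the first. Cox6a1, the widely expressed form of subunit 6a, holds 2 NRF1 matches, both shown. Cox6a1 had 54.2, 55.3 and 56.6 CPM in EpiLC and 112, 108 and 91.2 CPM in ESC (log2 fold change -0.91, adjusted p = 4.46e-05 by edgeR). Uqcr11, a small subunit of complex III, had 57.9, 65.1 and 71.1 CPM in EpiLC and 102, 98.8 and 79.6 CPM in ESC (log2 fold change -0.53, adjusted p = 0.00361 by edgeR). Neither Cox6a1 nor Uqcr11 overlapped between the states.

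Of the respiration regulators tested, 3 of 11 fell (27.3%) and 4 rose, near the shares over all genes of 32.6% lower and 32.0% higher. The estrogen-related receptor Esrrb, also one of the naive factors, was at 7.62 ± 0.76 CPM in EpiLC and 469.8 ± 89.2 CPM in ESC (SD, n = 3 each; log2 fold change -5.95). Gabpa, the DNA-binding partner of the GABP factor, fell (171 ± 3.62 CPM in EpiLC, 289.9 ± 6.26 CPM in ESC; log2 fold change -0.76), while its partner Gabpb1 rose (log2 fold change 0.60). Exons of Gabpa and of the subunit gene Atp5j overlap by 397 bases on opposite strands. The RNA-binding proteins Lin28a and Lin28b, known to bind transcripts of metabolic genes, rose, by 1.67 and 2.35 on the log2 scale.

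Assembly factors build the complexes. Of 48 assembly factors tested, 24 fell and 3 rose, with a median log2 fold change of -0.29, where 32.6% of all genes fell and 32.0% rose around a median of 0.01. For complex I, 8 of 16 fell and 2 rose, with Ndufaf5 (log2 fold change -1.28) and Ndufaf1 (-0.73) the most lowered and Tmem70 (0.47) and Timmdc1 (0.28) higher. For complex IV, 10 of 20 fell and 1 rose, among them the copper chaperone Cox17 (-0.96) and the insertion factor Cox18 (-0.75), against Cox16 (0.67). The complex III list had 4 of 6 lower, led by Bcs1l (-0.77), which inserts the Rieske protein, and Lyrm7 (-0.71), which guards that protein in the matrix. The complex II list had 2 of 4 lower (Sdhaf4, -0.59, and Sdhaf1, -0.50). The list drawn up for complex V had 1 of 4 genes lower (Foxred1, -0.52), against 32.6% of all genes, and Tmem70 higher. The place of either gene in this list does not show a role in complex V alone. The lists share genes, such as Tmem70 in those of complexes I and V, and the 48 factors count each gene once. A call in the complex V list is therefore not particular to complex V. The share of calls in assembly factors was not tested against that of subunits.

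Among genes that replicate and transcribe mitochondrial DNA, 7 of 16 fell (43.8%, against 32.6% of all genes), including the mitochondrial RNA polymerase Polrmt (log2 fold change -0.56) and Mterf2 (-0.75). Of 22 genes for mitochondrial RNA processing and translation, 10 fell (45.5%) and 1 rose (against 32.0% of all genes), with Fastkd1 (-1.10) and the initiation factor Mtif3 (-1.02) the most lowered and Pnpt1 (0.23) higher. The tricarboxylic acid cycle and pyruvate entry had 17 of 25 genes lower (68.0%) and 2 higher. Idh2, the mitochondrial NADP-dependent isocitrate dehydrogenase, averaged 73.7 ± 3.98 CPM in EpiLC and 326 ± 6.99 CPM in ESC (SD, n = 3 each; log2 fold change -2.15), and Pdk4, a kinase that shuts pyruvate dehydrogenase, fell by 2.10 on the log2 scale. Suclg2 (0.79) and Dlst (0.32) rose. Of 10 carriers and uncoupling genes, 4 fell and 2 rose. The pyruvate carrier genes Mpc1 (-1.54) and Mpc2 (-0.93) fell, and the adenine nucleotide carriers Slc25a31 (1.95) and Slc25a4 (0.57) rose.

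Of 11 further subunits and partners that the name patterns did not take in, 6 fell (54.5%, against 32.6% of all genes), 1 rose (against 32.0%) and 4 were not called. Cox4i1, the widely expressed form of subunit 4, averaged 399.6 ± 17.5 CPM in EpiLC and 491 ± 22.6 CPM in ESC (SD, n = 3 each; log2 fold change -0.30), and its lung form Cox4i2 fell by 1.33 on the log2 scale (0.516 ± 0.077 CPM in EpiLC, 1.36 ± 0.26 CPM in ESC). Cyct, the testis form of cytochrome c, fell (7.97 ± 0.91 CPM in EpiLC, 18.1 ± 2.10 CPM in ESC; log2 fold change -1.19), while the somatic form Cycs was not called (7.89 ± 0.65 CPM in EpiLC, 6.48 ± 0.19 CPM in ESC). Ndufb1-ps, annotated under a pseudogene symbol, was the one that rose (log2 fold change 0.23).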

How the data were processed

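The authors deposited raw exon counts, 1 row for each Ensembl gene and 1 column for each of the 6 libraries. Per the labels' protocols, Trizol RNA went through Ribo-Zero Gold depletion and a stranded Kapa library kit. Tools named in the submitters' processing notes are cutadapt, STAR, featureCounts and DESeq2, with mm10 as the build. Tool versions, gene annotation, strand setting and the treatment of multi-mapping reads were not given in the sources used here, so reads of overlapping, antisense and near-identical genes may be split in unknown ways.

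Of 51918 rows, 92 spike-in rows held 0 counts and were left out. Symbols, positions and lengths came from GENCODE M21 on GRCm38, the assembly of mm10, and 193 identifiers had no match. Testing used the quasi-likelihood method of edgeR 4.0.16 in R 4.3.3 (TMM, legacy off, filterByExpr at 10 counts and 15 in total), two-sided, with Benjamini-Hochberg adjustment over all 14996 genes tested and calls at 0.05. Fold changes are EpiLC over ESC. CPM use TMM-scaled totals, and 3 counts, the limit that a count of 0 allows, equal 0.135 to 0.301 CPM. Intervals and limits cover counting error only. Near-identical copies are blastn 2.17.0 matches of at least 95% identity over 100 bases and 50% of either transcript. Ratios of low counts have Clopper-Pearson intervals.

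In each complex, full values were given for up to 3 called genes in each direction with at least 1 CPM, for all mitochondrial genes and for the isoforms, and for other lists up to 2 called genes in each direction. Ndufv1, Atp5a1, Atp5b, Cox4i1, Cyct and the uncalled subunits were named after their values were seen, as were the subgroups of complexes I and V. Not every member's own values are reported here. The members and lists were chosen with earlier results of these data known. Alternatives were other scalings, no filter, limma-voom 3.58.1, DESeq2 1.42.0, a length trend (lowess, span 0.3), a replicate block and leaving out each library. The steps were tested on simulated data.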

Additional observations from a re-analysis of the deposited data

How the results depend on the processing

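No called result changed direction under any of the 15 alternatives. The count of nuclear subunits lower in EpiLC, 58 in the edgeR fit, ran from 50 to 71 when each library was left out in turn, and was 50 with library totals or with the length trend removed, 53 with upper quartile scaling and 58 with DESeq2. Between 72 and 74 of the 75 had a negative log2 fold change in each fit on these 75. The nuclear median of -0.53 became -0.43 with the length trend removed. Mitochondrially encoded genes moved more. Their count of higher genes, 1, became 4 with the length trend removed, 3 with library totals and 3 with upper quartile scaling, and ran from 1 to 3 when a library was left out. Their median of 0.04 became 0.23 with the length trend removed, 0.11 with library totals and -0.0285 with no filter on low counts, and ran from -0.0301 to 0.0835 when a library was left out. The cause was not tested. Scaling without mitochondrial RNA gives no value for these genes. Of 82 subunits tested, 56 kept their call in every fit, among them mt-Nd4, mt-Nd6 and mt-Co1, and 26 did not.

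Replicate numbers did not pair the libraries: same-numbered EpiLC and ESC libraries had correlations of deviations of -0.09, -0.01 and -0.15, and none correlated best with its own number. With the number as a replicate block, 55 nuclear subunits fell, 2 mitochondrial genes fell and 1 rose, and 9234 of all genes were called, against 9685 without it.

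Depth limits what can be said of Atp5l and of 4 restricted isoforms. The 6 mitochondrial genes at 0 give no measurement.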
